A study of Mus musculus with 23 samples.

Results

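Among genomic regions bound by the nuclear receptor NR5A2, 283 autosomal regions had as much or more open chromatin in both kinds of Nr5a2 knockout 8-cell mouse embryo as in the matching control. They were picked on the deposited ATAC-seq values themselves. A region qualified when both control columns held at least 2 RPKM (reads normalised to window length and library depth) and each knockout column was at or above its own control. Of the 16958 listed regions 16362 were autosomal, 6987 of these reached 2 RPKM in both controls and are called eligible below, and 283 (4.05%) met the whole rule. Since all 4 accessibility columns entered the rule, accessibility values of the members are given as a description without a test.

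NR5A2 is an orphan nuclear receptor of the NR5A family that binds DNA as a monomer, at a nuclear receptor half-site preceded by a short AT-rich extension. In the early mouse embryo it is known as a factor of zygotic genome activation and of the later lineage genes. It can bind nucleosomal DNA, so loss of accessibility after its removal is the change usually looked for at its sites, and regions that stay open are the complement of that set.

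ATAC-seq marks open chromatin through a transposase that inserts adapters into accessible DNA. The maternal-zygotic (mz) series held 8 single embryos of genotype mz_NrHet and 13 of genotype mz_NrKO, all at the 8C stage. No time of culture is recorded for them. The inducible series held 1 pool of iNrKO_minus_Tam_Nrpp and 1 pool of iNrKO_plus_Tam_NrKO embryos, taken at 30 h after hCG and cultured for 45 h to the 8C stage. Only the second pool had 750 nM 4-hydroxytamoxifen, the ligand that switches on an inducible Cre recombinase, for the first 24 h. The mz controls were heterozygotes, not wild type, and the labels name no tamoxifen-treated embryos with intact Nr5a2, so drug and deletion cannot be told apart in the pools. What drives the Cre, and whether the mz_NrHet embryos had maternal Nr5a2, was not given in the sources used here. The table holds 1 merged value per group and region, so the spread between embryos could not be measured, and every interval below is a 95% interval for counting error alone.

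The values were whole multiples of 1 read per column, which gave the reads behind each region. A read was worth 0.587 RPKM in mz_NrHet, 0.359 in mz_NrKO, 0.163 without and 0.170 with tamoxifen. The median member rested on 6 and 15 reads in the mz columns and on 22 and 26 reads in the pools, against 9, 8, 24 and 15 for the other 6704 eligible regions. Of the members 206 had under 10 mz_NrHet reads, and the 77 with at least 10 reads in each control are called the deeper members.

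Before the values, the start-site sequences of 7 genes show what kind of DNA the members at gene starts contain. Of the 283 members 32 (11.3%) overlapped a RefSeq promoter window (GRCm38.p6, the assembly of mm10) by at least 100 bases, against 286 (4.27%) of the other eligible regions. The windows below are the 250 bases before the annotated start, on the gene's strand, chosen after their values were seen. Secisbp2 (chr13:51651458-51651707, plus strand), Ccdc9 (chr7:16286018-16286267, minus strand) and Slc27a1 (chr8:71570344-71570593, plus strand) belong to the most accessible members. Dgcr8 (chr16:18289169-18289418, minus strand) has one of the highest CpG contents. Dhcr7 (chr7:143822917-143823166, plus strand), Tesk1 (chr4:43442027-43442276, plus strand) and Gm40987 (chr13:65990997-65991246, minus strand) hold the NR5A2 core. Capitals mark, on either strand, AAGGTCA (NR5A2 core, the end of the full motif TCAAGGTCA), GGGCGGG (SP and KLF factors), CCAAT (NF-Y), CCGGAAGT (ETS) and GGAATG (TEAD). AAGATGGC (YY1), GGATTA (PRD-like homeobox), AGATAA (bound by GATA factors) and motifs of CTCF and NRF1 were searched too and do not occur in these stretches.
Secisbp2: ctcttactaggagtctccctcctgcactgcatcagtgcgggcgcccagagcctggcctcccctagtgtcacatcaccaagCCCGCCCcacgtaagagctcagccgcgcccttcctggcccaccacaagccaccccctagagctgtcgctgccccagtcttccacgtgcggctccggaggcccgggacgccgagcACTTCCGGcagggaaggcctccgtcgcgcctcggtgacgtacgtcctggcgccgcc
Ccdc9: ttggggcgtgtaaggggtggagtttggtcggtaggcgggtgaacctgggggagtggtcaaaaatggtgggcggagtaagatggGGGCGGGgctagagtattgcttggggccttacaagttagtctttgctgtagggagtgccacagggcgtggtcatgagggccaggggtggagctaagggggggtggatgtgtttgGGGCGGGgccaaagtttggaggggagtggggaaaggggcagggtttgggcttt
Slc27a1: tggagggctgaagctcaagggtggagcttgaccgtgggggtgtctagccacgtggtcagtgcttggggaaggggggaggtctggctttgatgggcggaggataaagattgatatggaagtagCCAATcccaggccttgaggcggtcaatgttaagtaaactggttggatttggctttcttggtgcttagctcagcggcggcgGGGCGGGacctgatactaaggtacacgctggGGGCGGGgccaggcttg
Dgcr8: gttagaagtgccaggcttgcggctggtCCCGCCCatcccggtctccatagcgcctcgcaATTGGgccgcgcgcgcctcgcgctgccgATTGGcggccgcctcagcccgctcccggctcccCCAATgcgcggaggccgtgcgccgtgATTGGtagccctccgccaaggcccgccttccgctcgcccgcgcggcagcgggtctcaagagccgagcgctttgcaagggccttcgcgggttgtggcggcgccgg
Dhcr7: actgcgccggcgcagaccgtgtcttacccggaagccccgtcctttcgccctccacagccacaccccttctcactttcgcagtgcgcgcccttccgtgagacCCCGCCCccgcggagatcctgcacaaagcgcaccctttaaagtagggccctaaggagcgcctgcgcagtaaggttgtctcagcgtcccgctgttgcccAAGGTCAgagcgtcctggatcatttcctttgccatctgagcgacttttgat
Tesk1: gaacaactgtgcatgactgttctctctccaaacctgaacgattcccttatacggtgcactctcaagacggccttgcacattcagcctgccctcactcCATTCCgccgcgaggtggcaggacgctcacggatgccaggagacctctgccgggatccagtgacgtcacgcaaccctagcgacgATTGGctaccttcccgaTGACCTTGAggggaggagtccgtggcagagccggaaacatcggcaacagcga
Gm40987: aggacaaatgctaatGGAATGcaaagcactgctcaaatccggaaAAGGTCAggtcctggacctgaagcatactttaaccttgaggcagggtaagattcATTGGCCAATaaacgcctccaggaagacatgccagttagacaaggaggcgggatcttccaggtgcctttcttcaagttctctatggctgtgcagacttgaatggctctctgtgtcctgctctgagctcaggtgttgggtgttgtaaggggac

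CpG dinucleotides were dense in several of these windows but not in all. The Dgcr8 stretch held 36 CpG, a ratio of observed to expected CpG of 1.07, with GC at 73.6%. It carried GGGCGGG once and CCAAT in 4 places on either strand. The Secisbp2 stretch held 22 CpG with GGGCGGG and CCGGAAGT, and the Dhcr7 stretch 21 CpG with GGGCGGG and AAGGTCA. Ccdc9 with 7 CpG (ratio 0.508) and Slc27a1 with 10 CpG (0.557) were sparser. The Gm40987 stretch was the sparsest of the 7 with 3 CpG, a ratio of 0.198, and held the NR5A2 core, the NF-Y motif and the TEAD motif together. In Tesk1 the core lay inside the full motif on the opposite strand.

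Over whole windows of 300 bases (250 before and 50 after the start), the 32 member promoters had a median observed to expected CpG of 0.801, and 25 of them (78.1%) exceeded 0.6. The 286 promoters overlapped by other eligible regions had a median of 0.734, with 67.5% above 0.6. All 32851 promoters of the table had a median of 0.384, with 35.8% above 0.6. GGGCGGG was found in 19 of the 32 member windows (59.4%), in 51.0% of the windows of other eligible regions, in 45.2% of those of regions lower in both knockouts, and in 25.6% of all promoters. CCAAT was found in 18 (56.2%), 62.2%, 61.4% and 37.4% in the same order. Both motifs were thus more frequent at member promoters than in the table as a whole, while the exact binomial interval of the members (40.6 to 76.3% for GGGCGGG, 37.7 to 73.6% for CCAAT) covered the share at other eligible regions.

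The NR5A2 core AAGGTCA occurred in 4 member windows (12.5%, interval 3.51 to 29.0%), against 10.1% at other eligible regions, 9.64% at regions lower in both knockouts and 4.72% of all promoters. The 4 genes were Tesk1, I0C0044D17Rik, Dhcr7 and Gm40987, and the full motif was in the first pair (6.25%, against 2.45% and 0.423%). GGAATG was in 5 windows (15.6%), against 14.7% of all promoters. GGATTA was in 2 (6.25%, 7.06% of all promoters), and CCGGAAGT (3.12%, 3.89%) and AGATAA (3.12%, 11.2%) in 1 each. The NRF1 motif (0.971% of all promoters), AAGATGGC (2.75%) and the CTCF motif (0.201%) were in none of the 32, which with so few windows allows a share of up to 10.9%. A match of letters is a description of the window and not a bound site.

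**Figure D1:**
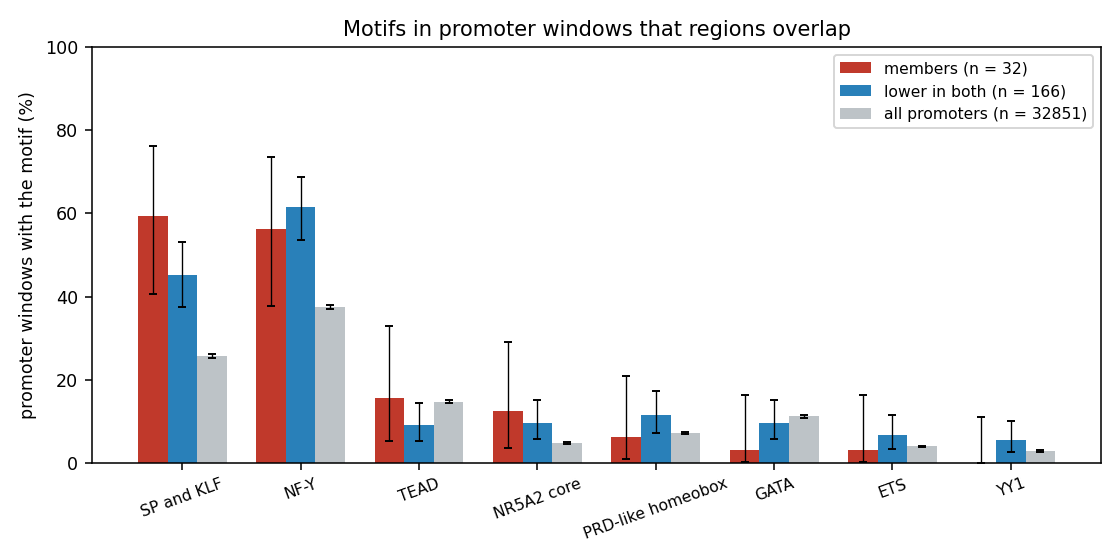
Share of promoter windows of 300 bases (vertical axis, %) that hold each motif on either strand, for windows overlapped by members, for windows overlapped by regions lower in both knockouts, and for all promoters of the RefSeq table. Bars are shares and error bars exact binomial 95% intervals. The SP and KLF bar reaches 59.4% in members and 25.6% in all promoters, and the member intervals overlap those of the regions lower in both knockouts for every motif drawn.

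The members' accessibility varied widely in each column. They ranged from 2.35 to 40.5 RPKM in mz_NrHet (median 3.52) and from 2.51 to 55.2 RPKM in mz_NrKO (median 5.38). In the pools they ranged from 2.12 to 30.2 RPKM without tamoxifen (median 3.59) and from 2.21 to 30.6 RPKM with it (median 4.42). Most members were therefore weakly open in the controls. Their median was below that of the other eligible regions in mz_NrHet (5.29 RPKM) and close to it in the untreated pool (3.92 RPKM). In the knockouts it was above theirs (2.87 RPKM in mz_NrKO and 2.55 RPKM with tamoxifen). The rule compares each knockout with its control, so these differences are partly fixed by the choice of members.

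The ratio of knockout to control had a median of 1.22 in the mz series, from 1.00 to 3.54, and of 1.19 in the inducible series, from 1.00 to 2.25. Summed over all members it was 1.31 (1.24 to 1.37) and 1.23 (1.19 to 1.27). The other eligible regions together had ratios of 0.593 and 0.663, and the 5146 regions lower in both knockouts (73.7% of eligible) 0.509 and 0.588. These differences are fixed by the choice of members. For a single member the counting interval was wide and included 1 for 277 of the 283 in the mz series and for 278 in the inducible series, so gains of single regions were rarely separable from equality at this depth. The interval lay above 1 in 6 members in the mz series, where 0.229% of eligible regions did so, and in 5 in the inducible series (0.243%). Against the summed ratio of eligible regions (0.616 and 0.685), the interval lay above in 67 members in the mz series (3.31% of eligible regions) and in 126 in the inducible series (5.67%). These shares come from the contrast that chose the members, and nothing is read from them.

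Each series alone kept a like share of regions. In the mz series 1063 of the 6987 eligible regions (15.2%) were at or above control, and in the inducible series 1061 (15.2%). The series share no sample. Of the 1063 regions kept in the mz series 26.6% were also kept in the inducible series, against 13.1% of the 5924 lower in the mz series. These shares use the same columns as the rule and are given as a description, and their cause was not tested. The share of members also fell with control level. In 5 equal groups of eligible regions by mean control RPKM, it was 6.75% in the least and 2.36% in the most open group. Both control columns form these groups and also enter the rule, so nothing is read from this trend. The authors' deposited table classed 50 members as Up and 233 as Unchanged, none as Down, where 1.06% of eligible and 16.9% of all regions were Up. These change classes describe the same accessibility data as the rule and are no independent support. The authors also classed 256 members (90.5%) as accessible and 27 as bound without being accessible, against 82.1% accessible among the other eligible regions.

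**Figure D2:**
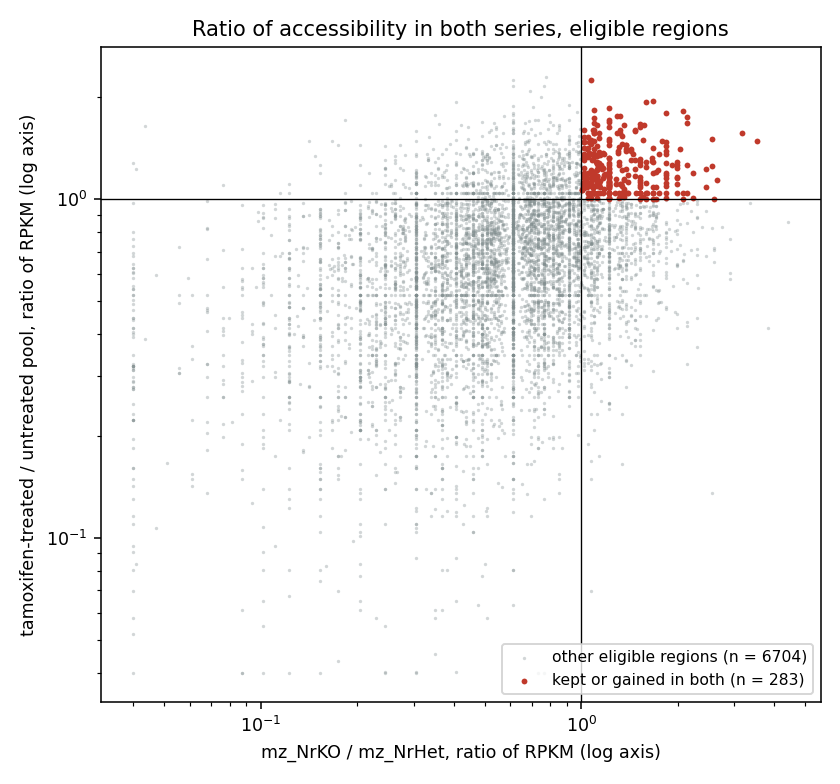
Ratio of RPKM in mz_NrKO over mz_NrHet (horizontal log axis) against treated over untreated pool (vertical log axis) for the 6987 eligible regions, with ratios under 0.04 drawn at 0.04. Each point is a region, the lines mark 1, and the 283 members fill the upper right field by construction. Vertical stripes come from small whole read numbers in the mz columns.

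Members lay close to the rule's limits in number. In mz_NrHet 53 members stood at the lowest value allowed, 2.35 RPKM or 4 reads, and 65 regions that met the rest of the rule missed it at 1.76 RPKM or 3 reads. In the untreated pool 14 members stood at 2.12 RPKM (13 reads) and 11 regions missed at 1.96 RPKM (12 reads). A region 0.101 kb from Pin1rt1 (ratio 1.003) and the Suclg2 promoter region (1.007) were just inside the mz limit, while regions in Ankrd54 and near Cend1 (0.999 each) were just outside. In the inducible series regions in Yipf1 and Zfp809 (1.001 each) were just inside and regions near Il6ra and Rinl (0.997 each) just outside. A single read would move any of these across the limit.

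The 10 members with the highest mean control value included several gene starts. A region 153 bases from Lnpep, which encodes the insulin-regulated aminopeptidase (chromosome 17, 17624642 to 17624999), had 17.6 RPKM in mz_NrHet, 19.4 in mz_NrKO, 9.30 in the untreated and 9.70 in the treated pool. A region 77 bases from the start of Castor1, the cytosolic arginine sensor of the mTORC1 pathway (chromosome 11, 4217991 to 4218148), had 16.4, 17.2, 7.83 and 8.17 RPKM in the same order. The region at Secisbp2, which encodes a protein needed for selenoprotein synthesis, had 14.1, 16.1, 7.67 and 8.00 RPKM. All of these were close to equality in both series, with mz ratios of 1.10 (0.691 to 1.78), 1.05 (0.643 to 1.73) and 1.14 (0.683 to 1.96), and an inducible ratio of 1.04 each.

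Ccdc9, a coiled-coil protein gene, had 12.9 RPKM in mz_NrHet, 17.6 in mz_NrKO, 10.6 in the untreated and 11.4 in the treated pool at its start. The start of Slc27a1, a fatty acid transport protein gene (chromosome 8, 71569944 to 71570518), had 12.3, 17.6, 8.98 and 12.6 RPKM, higher in both knockouts by a similar ratio, 1.42 (0.839 to 2.50) and 1.40 (0.976 to 2.03). A region inside Crybg2, 10.3 kb from its nearer end as computed from the gene table, had 17.0, 17.6, 9.14 and 10.6 RPKM. A region 611 bases from Mfsd5, a major facilitator family transporter gene, had 13.5, 13.6, 7.18 and 7.83 RPKM. The Slc27a1 values show a shift of the same size in embryos and pools, but the interval includes 1 in both.

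The most accessible member lay inside Sfi1, a centrosomal protein gene (chromosome 11, 3181141 to 3181401). It had 40.5 RPKM in mz_NrHet and 55.2 in mz_NrKO, a ratio of 1.36 (1.02 to 1.84), and 30.2 RPKM in the untreated against 30.6 in the treated pool, a ratio of 1.01 (0.822 to 1.25). It was the only member among 12 eligible regions of the Sfi1 gene. Of those 12, 6 were at or above control in the mz series and 1 in the inducible series, with mz ratios from 0.529 to 1.63 and inducible ratios from 0.775 to 1.01. In the inducible series the member was thus the one eligible Sfi1 region not below control, while the mz ratios of the cluster went both ways. How reads that fit several places were treated is unknown for Sfi1 too, and its values may not belong to this locus alone.

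A block of Sp100-related genes on chromosome 1 (85277706 to 85592224) behaved differently. It held 6 listed regions over 315 kb, 5 of them eligible and 4 of them members. A region inside Sp110/Sp140, whose products belong to a family of chromatin-reading nuclear body proteins (85591105 to 85591471), had 9.40 RPKM in mz_NrHet, 24.0 in mz_NrKO, 15.5 in the untreated and 19.4 in the treated pool. Its neighbour in the same gene pair (85591897 to 85592224) had 9.40, 23.0, 17.1 and 21.1 RPKM. The mz ratios of this pair, 2.56 (1.46 to 4.73) and 2.44 (1.39 to 4.53), are among the few intervals above 1, and their inducible ratios were 1.25 (0.944 to 1.66) and 1.23 (0.942 to 1.61). The region in C130026I21Rik/Gm38510 had ratios of 1.74 and 1.36, and 1 of the regions in Gm7592 had 1.28 and 1.04. The other eligible region in Gm7592 had 0.855 in the mz series (5 and 7 reads) and 1.37 in the inducible series. The genes of this block have near-identical copies, and how the authors placed reads that fit several copies was not given in the sources used here, so these values may be shared between copies.

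**Figure D3:**
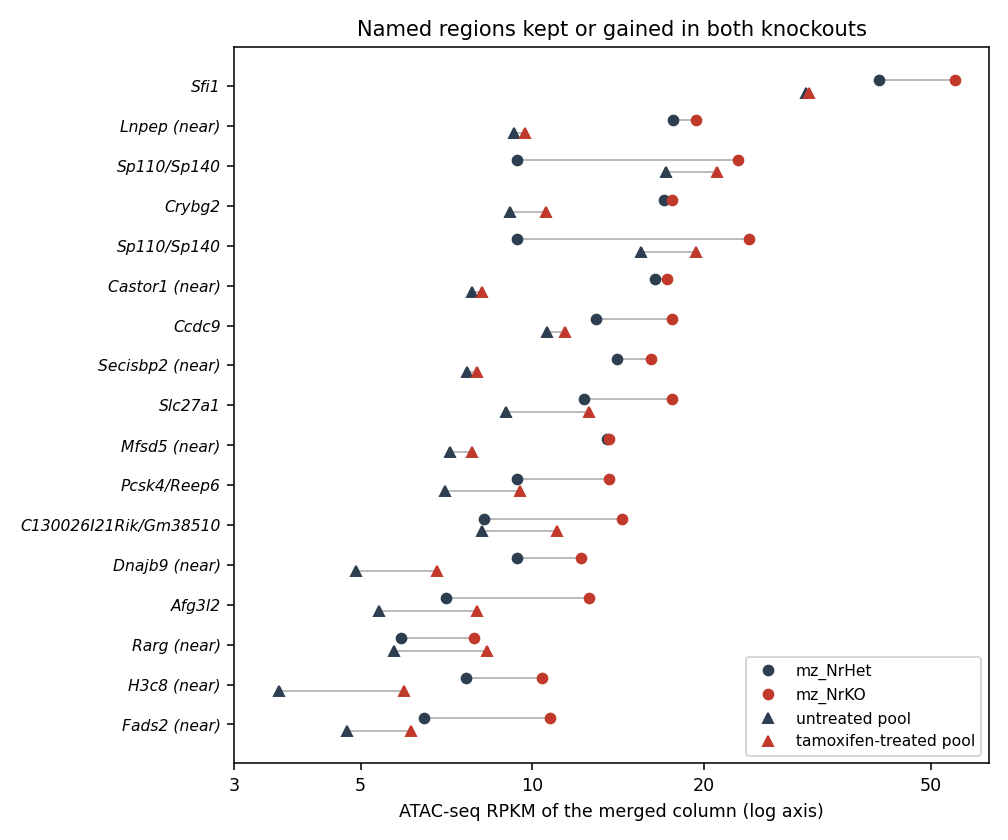
ATAC-seq RPKM of the merged columns (horizontal log axis) for members described in the text by control level or by the lower of their ratios; circles are the mz series, triangles the pools, dark the controls and red the knockouts, and "(near)" marks a region outside the gene. The red symbol lies at or to the right of the dark one by the rule, and the Sp110/Sp140 pair shows the widest mz gap, 9.40 against 24.0 and 23.0 RPKM.

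Among deeper members, those with the highest lower ratio of the 2 series came from several loci. They include 2 regions of the Sp100-related block described above, in C130026I21Rik/Gm38510 (lower ratio 1.36) and in Sp110/Sp140 (1.25). A region at an end of Afg3l2, a mitochondrial protease subunit gene (chromosome 18, 67449000 to 67449450), had 7.05 RPKM in mz_NrHet, 12.6 in mz_NrKO, 5.39 in the untreated and 8.00 in the treated pool, with ratios of 1.78 (0.903 to 3.77) and 1.48 (0.931 to 2.39). A region 2.75 kb from H3c8, a histone H3 gene of the large chromosome 13 cluster, had 7.64, 10.4, 3.59 and 5.96 RPKM. At Afg3l2 and H3c8 both ratios were above 1, as the rule requires, and no interval lay above 1.

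Slightly smaller values of the lower ratio than at Afg3l2 and H3c8, between 1.29 and 1.36, were found at Pcsk4/Reep6, Rarg and Fads2. A region at an end of Pcsk4/Reep6 had 9.40, 13.6, 7.02 and 9.53 RPKM. A region 10.2 kb from Rarg, the retinoic acid receptor gamma gene, had 5.87, 7.89, 5.71 and 8.34 RPKM. A region 28.3 kb from Fads2, which encodes a fatty acid desaturase, had 6.46, 10.8, 4.73 and 6.13 RPKM. Their positions differ, with 1 at a gene end and the other two outside genes.

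The gained end of the set was small. A ratio of at least 1.5 was reached by 82 members in the mz series (3.79% of eligible regions reached it) and by 39 in the inducible series (1.47%). In both series 11 reached it (0.157%), and any eligible region that did so is a member by the rule. A region inside B3galt5, a galactosyltransferase gene, had 4.70 RPKM in mz_NrHet, 7.89 in mz_NrKO, 2.61 in the untreated and 5.10 in the treated pool, the highest inducible ratio of the 11 at 1.95 (1.03 to 3.84). A region 8.05 kb from Pla2g10, a secreted phospholipase gene, had 2.94, 9.32, 4.24 and 6.64 RPKM, the highest mz ratio of the 11 at 3.17 (1.20 to 10.6). A region inside Sox5, an SRY-box transcription factor gene, had 2.35, 5.02, 2.94 and 4.93 RPKM, and a region inside Pcgf5, a Polycomb complex subunit gene, had 2.94, 7.53, 2.94 and 4.42 RPKM. Further regions of the 11 lay in or near Pdxk, Mybpc1, Seh1l, Cnbd2, Taok1 and Fkbp10. All 11 had 4 to 8 mz_NrHet reads, and these names were taken after the values were seen.

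Members lay near gene ends in a larger share, a feature that the rule did not use. Within 1 kb of either end of a protein-coding gene lay 59 members (20.8%, exact binomial interval 16.3 to 26.1%), against 10.99% (10.3 to 11.8%) of the other eligible regions and 9.29% (8.51 to 10.1%) of those lower in both knockouts. Counted from annotated start sites, which the promoter table gives for part of the genes and not for chromosome 18, the shares were 16.6% of members (12.4 to 21.6%) and 8.93% of other eligible regions (8.25 to 9.65%). Outside genes, members lay a median of 6.67 kb from the nearest gene, against 10.0 kb. Inside gene spans lay 46.3% of members and 49.2% of the others. The intervals treat regions as independent, which neighbouring regions are not.

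Gene-end members were more open than the rest of the set. Their median was 7.05 RPKM in mz_NrHet and 4.08 in the untreated pool, against 3.52 and 3.43 for the 224 members farther away. The ratios had medians of 1.17 and 1.13 against 1.22 and 1.20, but the rule holds every member ratio at or above 1. Nothing is read from their likeness. Other eligible regions were likewise more open near a gene end, with 8.22 and 4.73 RPKM within 1 kb and 4.70 and 3.75 RPKM farther away. The shares were therefore also compared at like control level. In 5 equal groups of mean control RPKM, the share of members near a gene end was 11.3, 15.7, 14.0, 30.0 and 57.6% from the least to the most open group. In the other eligible regions it was 5.44, 5.80, 9.11, 10.6 and 23.7%. The members' share was higher in all 5 groups, and in the top group their interval (39.2 to 74.5%) did not meet that of the others (21.4 to 26.0%). Among the 77 deeper members 33 (42.9%, 31.6 to 54.6%) lay near a gene end, against 16.3% of 3024 other eligible regions of that depth.

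Regions near gene ends that were not members also had higher ratios than those farther away. The 737 other eligible regions within 1 kb had median ratios of 0.698 (mz) and 0.774 (inducible), against 0.534 and 0.626 for the 5967 farther away. The gene-end regions also had more reads, a median of 14 in mz_NrHet against 8, and these ratios were not compared at like control level. The pattern at gene ends was known from these data before the members were chosen and is no independent support.

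Several gene-start members are given as examples, named after their values were seen and tested for no shared function. Suclg2, a subunit gene of succinate-CoA ligase, had 11.7 RPKM in mz_NrHet, 11.8 in mz_NrKO, 7.51 in the untreated and 8.00 in the treated pool. Pcx, the pyruvate carboxylase gene, had 11.7, 13.6, 6.53 and 8.00 RPKM, and Ndufb5, a respiratory complex I subunit gene, 8.22, 9.33, 3.59 and 4.93 RPKM. Of the translation initiation factor genes, Eif1 had 8.22, 10.0, 3.92 and 6.64 RPKM and Eif4e 2.35, 3.59, 3.59 and 4.08 RPKM. These starts differ in level more than in ratio, which the rule holds at or above 1 and which ranged from 1.01 to 1.69.

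Sterol enzymes were represented by Dhcr7, which encodes the reductase of the final step of cholesterol synthesis, with 8.81, 9.68, 4.73 and 5.44 RPKM, and by Cyp46a1, the cholesterol 24-hydroxylase gene, with 10.6, 10.8, 4.73 and 6.98 RPKM. The start of Dgcr8, the microRNA microprocessor subunit gene, had 11.7, 12.2, 4.08 and 4.59 RPKM. Tesk1, a kinase gene whose window has the full NR5A2 motif, had 5.29, 6.81, 3.10 and 5.44 RPKM, with ratios of 1.29 (0.556 to 3.24) and 1.76 (0.965 to 3.28). Prkci, the atypical protein kinase C gene of cell polarity, had 5.87, 6.10, 3.75 and 4.08 RPKM. The region at Gm40987, the CpG-poor window with the core, had 5.29, 8.25, 5.55 and 5.62 RPKM. The nearest protein-coding gene to that region is Gm46425, and its ratios were 1.56 (0.695 to 3.83) and 1.01 (0.607 to 1.68).

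**Figure D4:**
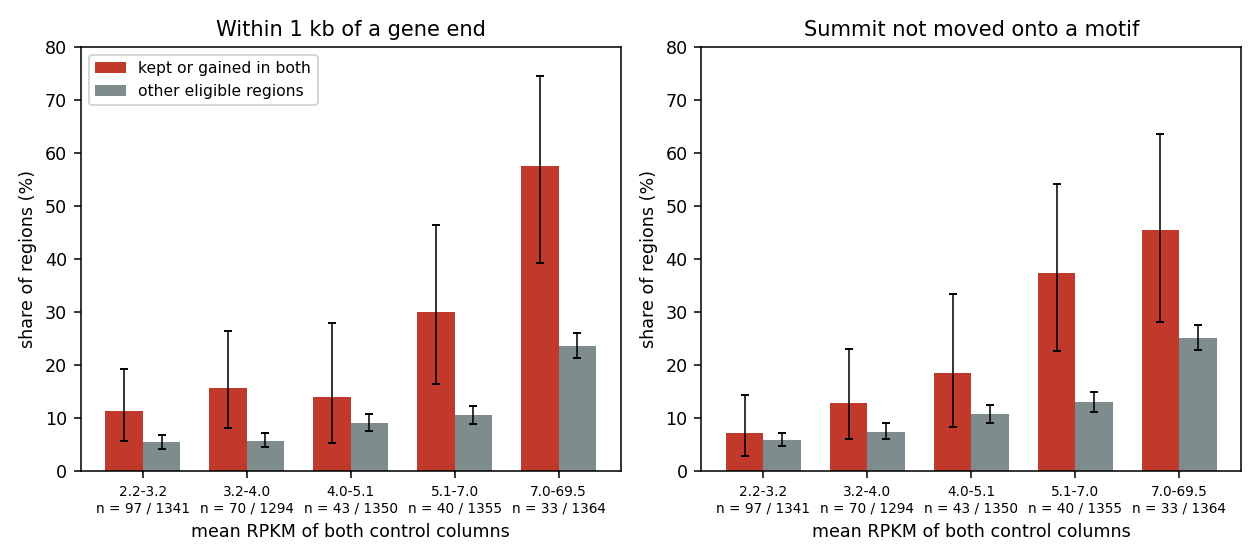
Share of regions (%) within 1 kb of a gene end (left) and with a CUT&RUN summit that the authors left in place (right), in 5 equal groups of eligible regions by mean RPKM of both control columns, with the range and the numbers of members and others under each group. Bars are shares and error bars exact binomial 95% intervals. The member bar at gene ends goes from 11.3% to 57.6%, and the bar of other regions from 5.44% to 23.7%.

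NR5A2 binding itself was measured by CUT&RUN, an antibody-directed cleavage assay, in an earlier study, per the file header. The members' median was 5.02 RPKM (4.66 to 5.46), against 5.25 RPKM (5.16 to 5.35) for the other eligible regions and 5.34 RPKM (5.24 to 5.44) for those lower in both knockouts. The member interval covers both of these medians, so a difference in binding was not resolved. From the least to the most open of the 5 groups by control level, the members' median was 4.54, 5.27, 5.85, 4.09 and 6.57 RPKM. In the others it was 4.49, 4.96, 5.19, 5.77 and 6.07 RPKM. The members' median was thus higher in every group except the one below the top, and no intervals were computed within groups.

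The most strongly bound member lay 2.38 kb from Dnajb9, an endoplasmic reticulum co-chaperone gene (chromosome 12, 44212446 to 44213043). It had 23.2 RPKM of CUT&RUN, and ATAC-seq values of 9.40 RPKM in mz_NrHet, 12.2 in mz_NrKO, 4.90 in the untreated and 6.81 in the treated pool. Next came the Sfi1 member with 19.2 RPKM of CUT&RUN, a region inside 1110051M20Rik with 19.0, one inside Slc49a4 with 18.7, and one near Aqp9, a water and glycerol channel gene, with 18.04. The weakest were at the starts of Ocel1 (0.965 RPKM) and Ndufb2, a complex I subunit gene (1.29), and inside Bicd1, a dynein adaptor gene (1.26). Ocel1 and Ndufb2 had the same mz values, 8.81 and 8.97 RPKM, and treated pools of 5.79 and 5.96 RPKM. Strong and weak binding sites therefore both occur among members.

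The authors moved a CUT&RUN summit when they recentred it on an Nr5a2 motif, per the file header, and left it in place in other regions. It was left in place in 54 members (19.1%), against 12.5% of the other eligible regions and 11.7% of those lower in both knockouts. From the least to the most open group, the share with a moved summit was 92.8, 87.1, 81.4, 62.5 and 54.5% in members, and 94.1, 92.5, 89.3, 87.0 and 74.8% in others. The gap was widest in the most open groups. Of the 77 deeper members 32 (41.6%, 30.4 to 53.4%) had an unmoved summit, against 18.6% (17.2 to 20.1%) of the other regions of that depth.

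Whether AAGGTCA lies at the summit was looked at where the promoter windows gave sequence. AAGGTCA lay at the recentred summit in 31 of 115 regions with a moved summit (26.96%) and in 2 of 113 with an unmoved one (1.77%). For members the numbers were 3 of 12 and 0 of 8. The motif the authors searched for was not given in the sources used here, and these regions are promoters alone. Since moved summits were placed on a motif, the contrast is partly fixed in advance. It does not show whether regions with an unmoved summit hold the motif elsewhere.

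Gene ends and unmoved summits overlapped in part. Among eligible regions, members made up 7.69% (4.62 to 11.9%) of those near a gene end with an unmoved summit and 7.30% (5.29 to 9.77%) of those near a gene end with a moved one. Farther away they made up 5.45% (3.84 to 7.46%) of regions with an unmoved and 3.40% (2.94 to 3.91%) of regions with a moved summit. Moved or not, gene-end regions thus had like shares.

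Other features were alike. The median length was 313 bases for members and 319 for other eligible regions, and the ATAC-seq summit lay a median of 105.5 and 104.5 bases from the recentred one. Another listed region lay within 5 kb of 24.7% of members (19.8 to 30.2%) and of 25.7% of the others (24.6 to 26.7%). Members formed 14 loci with 2 members within 50 kb, holding 28 members, and none with 3 or more. Besides the Sp110/Sp140 pair, these include regions near Rarg and Mfsd5, near Dnajb9 and Pnpla8, and 2 regions each near Bnip3, a mitophagy receptor gene, and Sp1, the factor that binds the GGGCGGG motif. Members were thus mostly single regions among neighbours outside the set.

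Those neighbours were looked at next, with members left out of both sets. The 65 listed regions that lay 0.5 to 5 kb from a member, and were not members, had a summed mz ratio of 0.818 (0.736 to 0.909) and an inducible ratio of 0.801 (0.743 to 0.863). The 1504 regions at that distance from other eligible regions had 0.637 (0.622 to 0.653) and 0.680 (0.668 to 0.692). At 5 to 20 kb the mz ratio around members was 0.697 (0.653 to 0.744), against 0.648 (0.636 to 0.659), and the inducible ratio 0.810 (0.774 to 0.847), against 0.695 (0.686 to 0.703). At 20 to 50 kb the mz ratios were 0.683 (0.652 to 0.715) and 0.659 (0.646 to 0.671), and the inducible ratios 0.753 (0.730 to 0.778) and 0.702 (0.693 to 0.711). Neighbours were lower in the knockouts in both series, but by less when close to a member. In the mz series the intervals met from 5 kb on, and in the inducible series they stayed apart over all 3 distances. Sfi1 regions outside the set, with up to 42.9 RPKM in the untreated pool, are among these neighbours and weigh heavily in summed reads. The ratios were not computed without them, so the separation in the inducible series may depend on this locus. A neighbour can be near both a member and another eligible region and then counts in both sets, and at short distance reads may be shared if the authors counted wider windows, so the values at 0.5 to 5 kb may hold reads that the rule used.

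**Figure D5:**
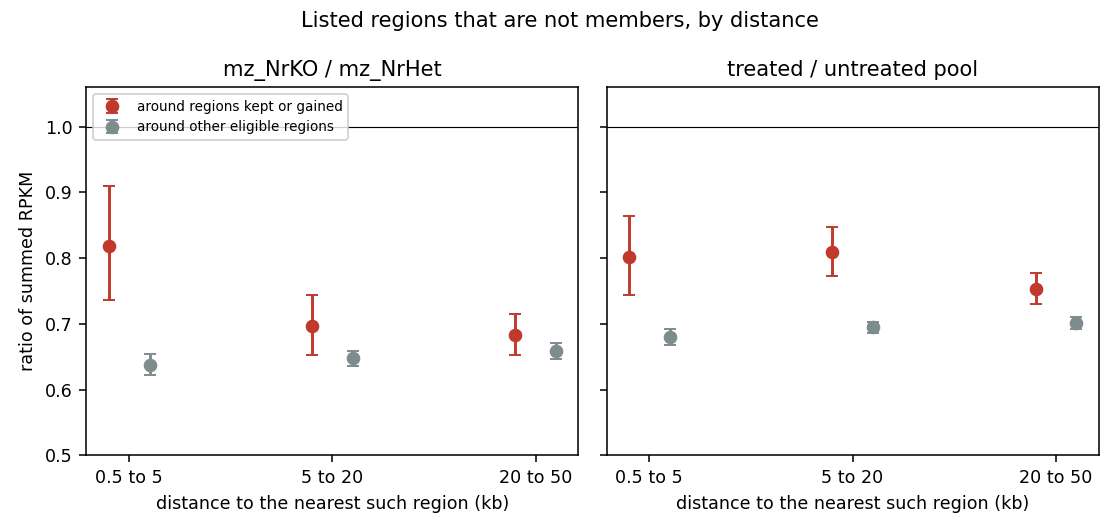
Ratio of summed RPKM, knockout over control (vertical axis, from 0.5), of listed regions that are not members, by distance in kb to a member (red) or to another eligible region (grey), for the mz series (left) and the pools (right). Error bars are 95% counting intervals. The mz point 0.5 to 5 kb from members stands at 0.818, against 0.637 around other eligible regions.

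Lists of genes fixed for this tissue gave few members. Of 33 eligible regions within 50 kb of 2-cell genome activation genes 4 (12.1%) were members, where 4.05% of all eligible regions were, with median ratios over the 33 of 0.712 (mz) and 0.782 (inducible), where all eligible regions had 0.611 and 0.658. They were the Sp110/Sp140 pair, a region 8.36 kb from Tmem92 and one 26.5 kb from Obox6, a homeobox gene of the oocyte-specific Obox family. The Tmem92 region had 2.35 RPKM in mz_NrHet, 4.30 in mz_NrKO, 3.26 in the untreated and 3.91 in the treated pool. Without the Sp110/Sp140 pair, which has near-identical copies, 2 members remain on this list.

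Of 60 eligible regions near mitosis and genome maintenance genes 4 were members (6.67%): the Sfi1 region, another 48.0 kb from Sfi1 in Drg1, and regions 6.34 kb from Incenp, a chromosomal passenger complex gene, and 12.5 kb from Cdc20, the activator of the anaphase-promoting complex. Of 68 near housekeeping genes 3 were members (4.41%), near the ribosomal protein genes Rps20, Rpl13a and Rps18. The Rps20 region, 4.53 kb from the gene, had 8.81, 8.97, 8.16 and 8.85 RPKM in the order used above, one of the flattest profiles of the set. It also lay 43.6 kb from Mos, a meiotic kinase gene, the 1 member among 28 eligible regions of the oocyte list (3.57%). Shares near 4.05% are no result about a list.

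Of 42 eligible regions of the stress list 2 were members (4.76%). One lay 6.89 kb from Atf4, a transcription factor of the integrated stress response, at the start of Rps19bp1, with 2.94, 4.30, 2.77 and 4.42 RPKM. The other lay 16.2 kb from Ddit3, which acts in the same response, with 5.29, 5.74, 2.77 and 2.89 RPKM. Of 19 regions near liver and steroid targets of NR5A2 1 was a member (5.26%), 35.9 kb from Shbg, the sex hormone-binding globulin gene. It had 2.94, 5.02, 3.92 and 4.25 RPKM.

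No member lay within 50 kb of the lists for pluripotency (0 of 50 eligible regions), trophectoderm (0 of 20), primitive endoderm (0 of 13) or granulosa and cumulus cells (0 of 12), the last being cells that could cling to an embryo. At 4.05% of eligible regions, lists of this size hold few members or none. The list medians were 0.482 and 0.672 for pluripotency, 0.464 and 0.555 for trophectoderm, and 0.666 and 0.610 for primitive endoderm, mz before inducible.

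A single member was nearest to Nr5a2 itself, 24.3 kb outside the gene (chromosome 1, 136984796 to 136985201). It had 5.87 RPKM in mz_NrHet, 6.46 in mz_NrKO, 3.75 in the untreated and 6.30 in the treated pool, with ratios of 1.10 (0.481 to 2.66) and 1.68 (0.971 to 2.96). It lies outside the gene span and so does not check the deletion.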

How the data were processed

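ATAC-seq of 21 single embryos and 2 pools was deposited as 1 table of NR5A2-bound regions. Per the file headers it gives RPKM from ATAC-seq, merged by group, and RPKM from CUT&RUN of an earlier study. The deposited ratio columns, knockout over control, were recomputed by the same division of RPKM and used only as a check. Cutadapt, Bowtie2, MACS2 and mm10 were used per the submitters' processing notes, which give no versions here. Duplicate removal, insertion shifting, the merging of embryos and the handling of multiply mapping reads are not given in the sources used here.

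Reads were recovered as whole multiples of the step of each column (100% of values within 0.0001 of a step). Column sums over the listed regions were 99826 reads in mz_NrHet, 109296 in mz_NrKO, 285671 without and 190091 with tamoxifen, which are not library depths. Ratios have exact 95% intervals (Clopper-Pearson, given the sum of reads), shares exact binomial and medians order-statistic intervals, all for counting or sampling of regions alone and not for the spread between embryos. The calculations were tested on simulated data. No test between groups was run, since the columns hold 1 value per group. The planned limma fit on log2(RPKM + 1) needed values per embryo.

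Members, lists and the naming rule were chosen with earlier results of these data known. The rule names the 10 members highest in control, the 10 with the highest lower ratio among those with at least 10 reads in each control, the 5 most and 3 least strongly bound, the members nearest the limits, up to 2 per list of nearby genes, and loci with 3 or more members. Region genes came from RefSeq gene spans (GRCm38.p6), and sequences from RefSeq promoter windows. In 1811 of 1811 overlapping windows on opposite strands the letters agreed once reversed and complemented. The table has no window on chromosome 18 and lacks some genes. A few regions that the rule names are not reported here. No genome was used, so sequence of regions outside promoters was not analysed here. Python 3.11.15, numpy 2.4.6, pandas 2.3.3, scipy 1.17.1 and matplotlib 3.10.9 were used.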

Additional observations from a re-analysis of the deposited data

How the results depend on the processing

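The number of members followed the limits of the rule. It was 645 with at least 1 RPKM in each control, 42 with at least 5 RPKM and 11 with a ratio of at least 1.5 in both series. It was 962 when the knockout columns were scaled to a median log2 difference of 0 (shifts of -0.32 and -0.35) and 1804 when scaled to a summed ratio of 1, an alternative chosen after seeing the data. It stayed at 283 with a strict inequality or with chromosome X included, and was 281 with regions under 1 kb apart merged.

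With at least 5 RPKM in each control the members' CUT&RUN median was 5.67 RPKM, the share with a moved summit 59.5% and the share near a gene end 47.6%. With at least 10 reads in each control the summit and gene-end shares were 58.4% and 42.9%. Of all 283 members 43.1% lay within 5 kb of a gene end. The direction against the other eligible regions was kept in these. The share with a listed neighbour turned from below the others at 5 kb to above them at 1 kb (10.6%) and at 50 kb (83.4%), and the cause was not tested. No paired analysis was possible because the columns hold merged groups. Leaving out single embryos, a replicate block and windows of 300 bases around the summit were not run for lack of embryo values and genome sequence. Reads limit what single regions show, as 206 members rest on under 10 mz_NrHet reads.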

Other observations

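Members were spread over all autosomes. They made up 34 of 523 eligible regions on chromosome 4 (6.50%, exact binomial interval 4.54 to 8.97%) and 19 of 296 on chromosome 15 (6.42%, 3.91 to 9.84%), the highest shares. They made up 5 of 406 on chromosome 9 (1.23%, 0.401 to 2.85%), the lowest. The rule left out chromosome X, where 0 of 217 regions with 2 RPKM in both controls were at or above control in both series, which allows a share of up to 1.69%. On autosomes the share was 4.05%.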
